A study of Mus musculus with 8 samples.

Results

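The genes described here encode the proteins that dock, prime and fuse transport vesicles, above all synaptic vesicles. They were taken by gene symbol from the mouse table: synaptotagmins (Syt), syntaxins (Stx), syntaxin binding proteins (Stxbp), vesicle-associated membrane proteins (Vamp), the SNAP-25 family with the clathrin adaptor Snap91, synapsins (Syn), complexins (Cplx), Rab3 proteins, SV2 proteins and the RIM proteins of the active zone (Rims). The rule found 61 of the 15275 genes in the table. By known role, 30 of the 61 were counted as genes of regulated exocytosis at synapses and 31 as genes of general membrane trafficking. The data are mRNA-seq of 8 libraries from ICR mice at postnatal day 0, according to the submitters' labels, although the paper's results give another day. Inner ears were dissociated, and epithelial cells, neurons, mesenchyme and vascular endothelium (endothelium in the following) were sorted by flow cytometry with antibodies to CD326, CD49f and CD34, 1 library from the cochlea and 1 from the vestibular organs (vestibule) for each. The labels name no transgene and no treatment, and the sources do not state how many animals were behind each library. Each cell type thus has 2 samples, 1 per organ, and p-values measure only the spread between such libraries.

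As background, a vesicle fuses when a SNARE protein on the vesicle (a VAMP) zips together with SNAREs on the target membrane (a syntaxin and a SNAP-25 family protein). Munc18 proteins, encoded by the Stxbp genes, bind the syntaxin and guide assembly, complexins clamp the partly zipped complex, and synaptotagmins of the calcium-binding kind trigger fusion when calcium enters. RIM and Rab3 proteins hold vesicles near calcium channels, and synapsins and SV2 sit on the vesicle itself. In the inner ear, sensory hair cells release glutamate at ribbon synapses onto spiral and vestibular ganglion neurons, and otoferlin serves as a calcium sensor of hair cells. Epithelia, glia, fibroblasts and endothelium use relatives of the synaptic proteins for secretion and membrane delivery.

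Values are normalized signals on a linear scale that the authors had made to follow the same distribution in all 8 libraries, with a minimum of 20. Depth is unknown, no counting error can be given, and levels were compared between libraries for the same gene only. Where a pair of values is given for a cell type, the cochlear library stands first and the vestibular library after it. The defining markers of epithelium and endothelium were high in the libraries that carry their label: Epcam had 14253 and 21678 in epithelium and at most 987 elsewhere, and the 12 endothelial markers summed to 312499 and 161294 in endothelium. The 14 epithelial markers summed to 273262 and 319838 in epithelium. They summed to 1280 and 15469 in neurons, 7287 and 7431 in mesenchyme and 1262 and 15366 in endothelium. The part of such cells in differences between the organs was not tested. The libraries of neurons stood apart from their label. Their 14 markers of glia summed to 208839 and 224734, against 3092 to 24517 in the other libraries, while their 16 markers of neurons summed to 8812 and 5651, against 8379 and 6938 in epithelium. In vestibular neurons 6 of these 16 markers, Pou4f1, Prph, Nefh, Rbfox3, Elavl4 and Snhg11, were at the minimum, and Tubb3 had 469 in cochlear but 36.9 in vestibular neurons. The number at the minimum was also 6 in cochlear epithelium, vestibular mesenchyme and vestibular endothelium, and it was 0 in cochlear neurons and cochlear mesenchyme. The 12 markers of mesenchyme summed to 397313 and 487641 in mesenchyme but also to 206681 and 142316 in neurons, where Col1a1 had 9050.3 and 7404, against 5559.5 and 6364 in mesenchyme. In epithelium the 12 markers of mesenchyme summed to 46522 and 29591, and in endothelium to 4172 and 33106. The 7 erythroid markers reached 89582 and 169830.3 in mesenchyme and at most 5557 elsewhere. The part of glia and mesenchyme in the results for neurons, and of blood cells in those for mesenchyme, was not tested, and in sorted populations fewer cells of a type and less RNA per cell cannot be told apart. Vestibular endothelium stood apart over all genes, with a Spearman correlation of 0.877 to cochlear endothelium but 0.8875 to vestibular neurons, whereas over the 61 members these were 0.927 and 0.826.

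The 61 members spread widely over the cell types. The mean of the 2 libraries was highest in epithelium for 20 members, in neurons for 13, in mesenchyme for 14 and in endothelium for 14, which is 32.8%, 21.3%, 23% and 23% of the members, against 25.5%, 21.1%, 23.2% and 28.7% of all genes. The median ratio of the highest to the lowest of the 8 libraries was 5.83 for the members, against 3.67 for all genes. It was 7.02 for the 30 genes of regulated exocytosis, and 4.19 for the 31 genes of general trafficking. These sets also differed in level, with a median over genes of the mean value of 117 and 590. At least 1 library was at the minimum for 53.3% and 22.6% of them. The part of level and minimum in these ratios was not tested. At least 1 library was at the minimum of 20 for 23 members (37.7%, beside 26.5% of all genes). No member was at the minimum in all 8, and 57 had a highest value of at least 100. The ubiquitous syntaxins of the endoplasmic reticulum, Golgi and endosomes (Stx5a, Stx6, Stx7, Stx8, Stx12, Stx16, Stx17, Stx18) gave no member that passed a test, with log2 differences of each cell type from the other 3 between -1.05 and 1.44.

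**Figure D1:**
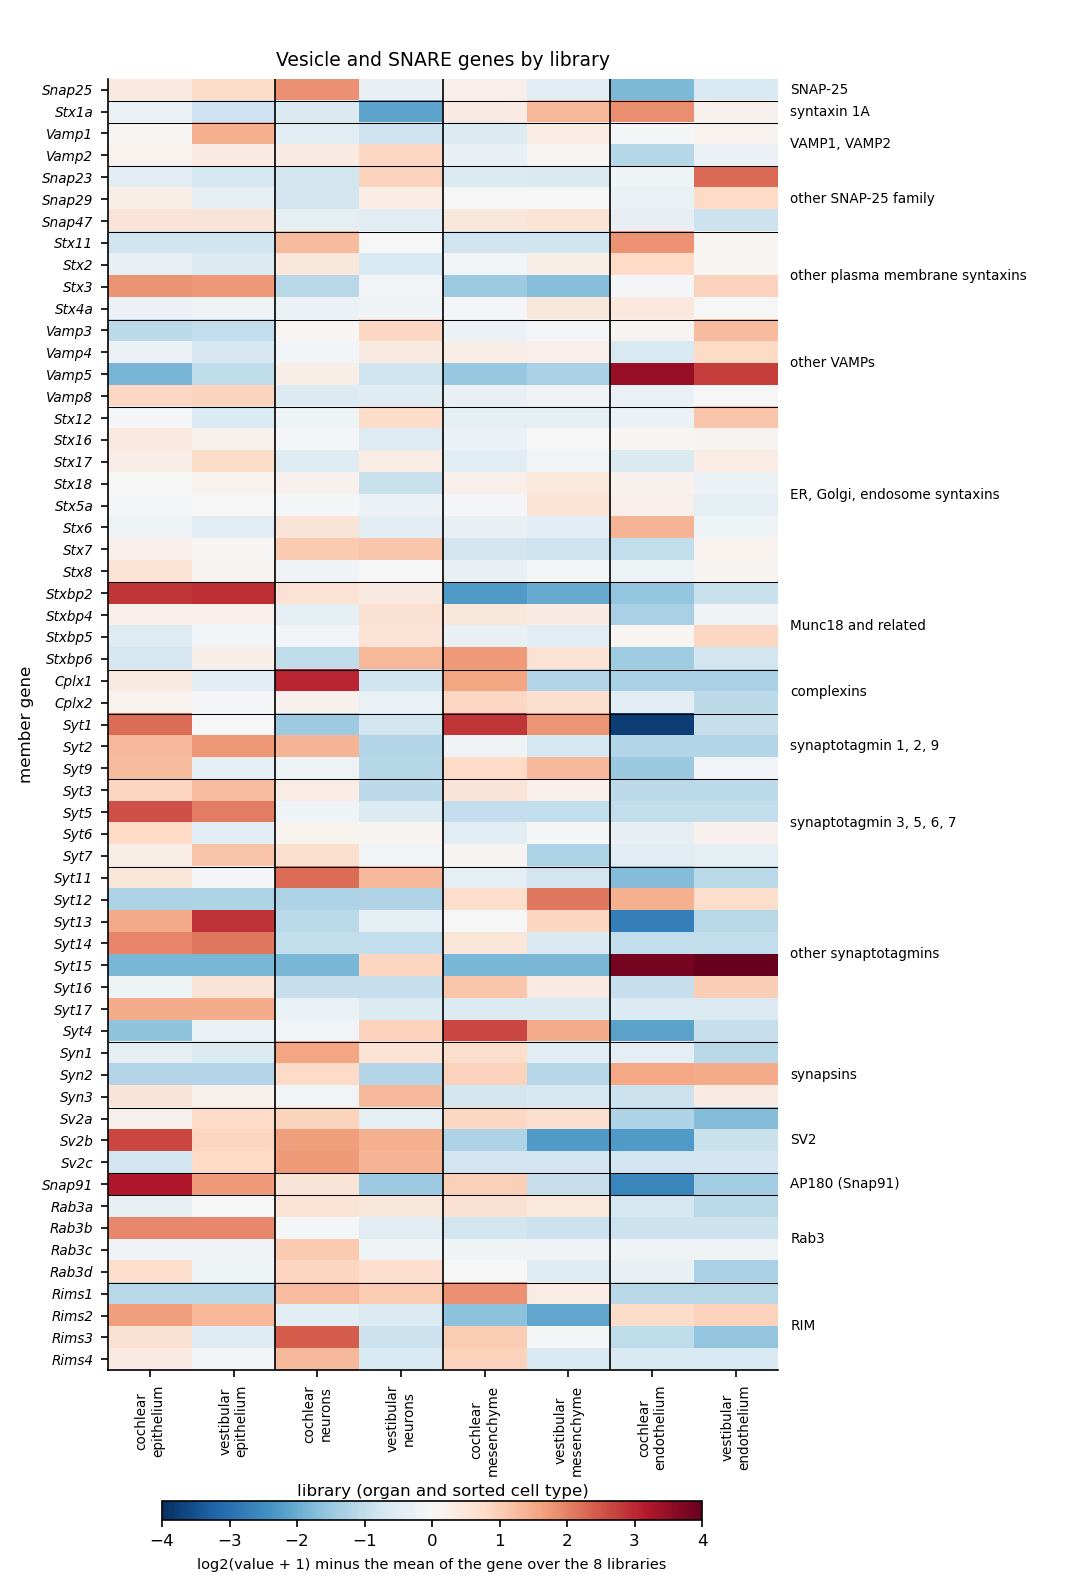
Heat map of 59 members (rows, grouped by role, with roles at the right) in the 8 libraries (columns); colour shows log2(value + 1) minus the mean of the gene over the 8 libraries, and differences beyond 4 take the end colour. Blocks that are red in both libraries of a cell type are seen for Stxbp2, Syt5 and Syt14 in epithelium and for Vamp5 and Syt15 in endothelium, while Cplx1 and Rims3 are darkest red in cochlear neurons and pale or blue in vestibular neurons.

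Epithelium was first compared with the mean of the other 3 cell types, to ask which vesicle genes mark the compartment that holds the hair cells and supporting cells. Higher in epithelium were the epithelial Munc18 gene Stxbp2, its syntaxin partner Stx3, the VAMP gene Vamp8, 4 synaptotagmins (Syt5, Syt13, Syt14, Syt17), Rab3b and the active zone gene Rims2. Vamp3 was among the members that were lower. In all, 11 of 61 members passed an adjusted p of 0.05 in limma, beside 13.9% of all genes: 9 were higher, beside 7.27% of all genes, and 2 were lower, beside 6.68%. The median log2 difference of the members was 0.17, against -0.07 over all genes.

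Among the SNARE genes, Stx3, which encodes a syntaxin of the apical membrane of epithelia that also serves ribbon synapses of the retina, had 839 and 808 in epithelium, against 110.4 and 223 in neurons, 88.3 and 73.8 in mesenchyme and 229.5 and 462 in endothelium. Both epithelial libraries lay above the other 6. The log2 difference was 2.35 with a standard error (SE) of 0.39 (limma adjusted p = 0.0285). Vamp8, which encodes endobrevin of endosomes and regulated secretion, had 1033 and 1079 in epithelium, against 398 and 413 in neurons, 464 and 527 in mesenchyme and 478 and 567 in endothelium. The difference was small in size, 1.16 on the log2 scale (SE 0.17, limma adjusted p = 0.0213), but the 2 libraries of every cell type lay close together. Vamp3, which encodes cellubrevin of recycling endosomes, was lower, with 965 and 1011 in epithelium against 2130.4 and 3594 in neurons, 1723 and 1961 in mesenchyme and 2151 and 4878 in endothelium, a log2 difference of -1.36 (SE 0.27, limma adjusted p = 0.0422). Vamp3 lies within Camta1 on the same strand, and it lost this call when the organ term was left out of the model (limma adjusted p = 0.0638).

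Stxbp2, which encodes the Munc18 protein of epithelia and blood cells and lies at chr8:3630955-3643644 on the plus strand (GRCm38), had 1800.4 and 1919 in epithelium, against 366 and 314 in neurons, 50 and 59.4 in mesenchyme and 81.0 and 133 in endothelium. Its log2 difference of 3.89 (SE 0.30, limma adjusted p = 0.00795) was the largest of the members in this comparison. Both epithelial libraries lay above the other 6, and the neuronal libraries came next. Stxbp4, Stxbp5 and the SNARE-binding gene Stxbp6 did not pass, with log2 differences between -0.41 and 0.26.

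Of the synaptotagmin genes, 4 were higher in epithelium. Syt5, which encodes a calcium-binding synaptotagmin of dense-core vesicles, had 243 and 169 in epithelium, against 35.8 and 27.0 in neurons and 20 in all 4 libraries of mesenchyme and endothelium. Since 4 of its 8 values were at the minimum of the table, the log2 difference of 3.07 is measured against that minimum. The SE of 0.18 and the limma adjusted p = 0.00553 rest in part on those tied values. Syt13, an atypical synaptotagmin that lacks the calcium-binding residues, had 535 and 1417 in epithelium, against 89.6 and 146 in neurons, 192 and 340.1 in mesenchyme and 27.6 and 86.5 in endothelium (log2 difference 2.94, SE 0.33, limma adjusted p = 0.014). Its vestibular library was higher than the cochlear one in all 4 cell types. Syt14, also of the kind without calcium binding, had 159 and 181 in epithelium, against 20 in both libraries of neurons and of endothelium and 57.8 and 27.0 in mesenchyme (log2 difference 2.71, SE 0.29, limma adjusted p = 0.0137). Syt17 had 83.6 and 83.8 in epithelium, against 24.4 and 20 in neurons and 20 in the 4 other libraries, so that it lay close to the minimum throughout (log2 difference 1.97, limma adjusted p = 0.00553).

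The fast calcium sensors of central synapses did not separate epithelium from the rest. Syt1 had 1940.4 and 422 in epithelium, a gap between the 2 organs as wide as many differences between cell types, against 152 and 249 in neurons, 2989 and 1404 in mesenchyme and 29.6 and 216 in endothelium (log2 difference 1.5, SE 1.04, limma adjusted p = 0.412). Syt2 had 117 and 156 in epithelium, against 119.9 and 20 in neurons, 41.5 and 27.8 in mesenchyme and 20 in both endothelial libraries (log2 difference 2.03, limma adjusted p = 0.107). Syt9 had 140.4 and 43.8 in epithelium, 50.3 and 26.0 in neurons, 101 and 145 in mesenchyme and 20 and 54.5 in endothelium. In none of these 3 did both epithelial libraries lie above all of the others. Of the other calcium-binding synaptotagmins, Syt3 had 76.8 and 101 in epithelium, which was above 52.5 and 20 in neurons, 61.4 and 48.4 in mesenchyme and 20 in both endothelial libraries, yet it did not pass (limma adjusted p = 0.0779). Syt7, a high-affinity calcium sensor, had 309 and 569 in epithelium, 406 and 241 in neurons, 279 and 108 in mesenchyme and 194 and 199.6 in endothelium.

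Of the genes that act at the active zone, Rab3b and Rims2 stood out. Rab3b, one of the 4 Rab3 genes, had 144 and 143 in epithelium, against 34.8 and 27.0 in neurons, 22.1 and 20 in mesenchyme and 20 in both endothelial libraries. Its log2 difference was 2.56 (SE 0.14, limma adjusted p = 0.00544), the smallest adjusted p of any member. A gene on its opposite strand, 8030443G20Rik, overlaps Rab3b, and the sources do not state whether reads were counted by strand. The remaining Rab3 genes showed no such step: Rab3a, the main Rab3 gene of brain synapses, had 172 and 207 in epithelium against 309 and 286 in neurons, 320.4 and 283 in mesenchyme and 132 and 100 in endothelium, Rab3c was at the minimum in 7 libraries, and Rab3d had 536 and 293 in epithelium against 594 and 531 in neurons. Rims2, which encodes a RIM protein that holds calcium channels at release sites, had 279 and 221 in epithelium, against 64.8 and 59.6 in neurons, 27.6 and 20 in mesenchyme and 147 and 167 in endothelium (log2 difference 2.0, SE 0.26, limma adjusted p = 0.017). Rims1 ran the other way, at the minimum of 20 in both epithelial and both endothelial libraries, but this did not pass (log2 difference -1.46, limma adjusted p = 0.0686).

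Snap91, which encodes the clathrin adaptor AP180 that retrieves synaptic vesicle membrane, had the second largest log2 difference and narrowly missed the threshold. Its values were 1187 and 424 in epithelium, against 184 and 45.9 in neurons, 248 and 67.6 in mesenchyme and 20 and 48.8 in endothelium (log2 difference 3.28, SE 0.75, limma adjusted p = 0.0566). Cochlear values exceeded vestibular ones in 3 of the 4 cell types, and both epithelial libraries lay above the other 6. Snap91 passed without cochlear endothelium, without vestibular endothelium, with median-of-ratios scaling, with a pseudocount of 20 and after genes whose values never reached 100 were removed. In total, both epithelial libraries lay above the other 6 for 12 members, beside 12.4% of all genes. Besides the 9 members that passed, these were Snap91, Syt3 and Stx16. Both lay below the other 6 for 2 members, Vamp3 among them, beside 11.3% of all genes.

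The number of calls in epithelium fell when a library other than an endothelial one was left out. It was 11 without cochlear and 12 without vestibular endothelium, 3 without cochlear epithelium and 3 without vestibular epithelium, 6 without either mesenchymal library, 7 without cochlear neurons and 4 without vestibular neurons. Syt5, Rab3b and Syt17 kept their call in all 8 of these fits, and no member turned direction. These 3 genes had 4, 3 and 5 of their 8 values at the minimum, in that order. Values tied at the minimum hide spread between libraries, so their kept calls are not read as greater stability. Stxbp2 lost its call only without cochlear or without vestibular epithelium, with log2 differences of 3.814 and 3.965.

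**Figure D2:**
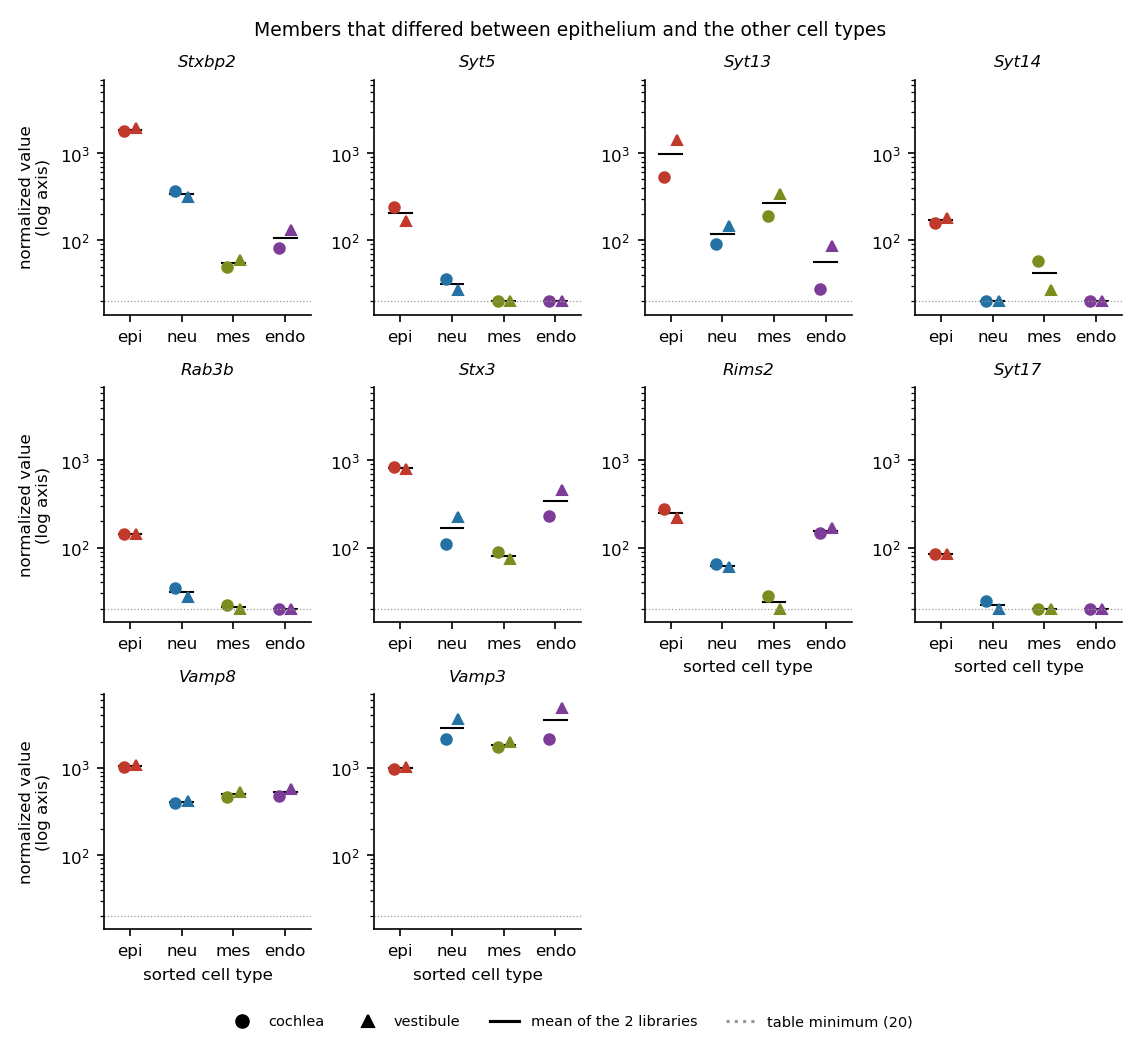
Normalized values (log axis) of 10 members that differed between epithelium and the other 3 cell types, by sorted cell type (epi, epithelium; neu, neurons; mes, mesenchyme; endo, endothelium); circles are cochlear and triangles vestibular libraries, bars their mean, and the dotted line the table minimum of 20. The 2 epithelial libraries are above the other 6 in 9 panels and below them for Vamp3.

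Epithelium was also set against the libraries of neurons alone, since hair cells and ganglion neurons form the sender and receiver sides of the same synapse. In those libraries the markers of glia summed to 208839 and 224734 and those of neurons to 8812 and 5651. The comparison is therefore not one of hair cells with ganglion neurons only. Here 10 of 61 members passed, beside 10.2% of all genes: 8 were higher in epithelium, beside 5.23%, and 2 were lower, beside 5.0%. The higher ones, with log2 differences of 1.38 to 3.02, were Syt14 (3.02, SE 0.36), Syt13, Syt5, Stxbp2 (2.45, SE 0.36), Rab3b, Rims2, Syt17 and Vamp8, all named above. The comparison uses the same epithelial libraries as the preceding one, so these calls are not separate evidence. Stx3 just missed the threshold (log2 difference 2.38, SE 0.48, limma adjusted p = 0.051).

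Lower in epithelium than in the libraries of neurons were Rims1 and Syn1, which both encode proteins of the presynaptic terminal. The part of glia and mesenchyme in those libraries was not tested. Rims1 had 20 and 20 in epithelium, against 106 and 90.6 in neurons (log2 difference -2.23, SE 0.45, limma adjusted p = 0.0499). It also had 158 and 54.1 in mesenchyme, so that its low values were shared by epithelium and endothelium and not by the other libraries. Syn1, which encodes synapsin I of the vesicle surface, had 33.9 and 30.1 in epithelium, against 135 and 65.4 in neurons, 72.5 and 32.5 in mesenchyme and 33.3 and 20 in endothelium (log2 difference -1.53, SE 0.30, limma adjusted p = 0.0468). Syn1 overlaps Timp1 and Araf on the opposite strand, and reads from these genes cannot be told apart without strand. Syn1 lost its call in all 8 fits that left out 1 library (limma adjusted p 0.0613 to 0.205), and Rims1 in 6 of them. Of the 6 other alternatives, 3 ended the call for Syn1 (highest limma adjusted p = 0.145) and 2 that for Rims1 (0.0689). The whole count fell in every fit that left out 1 library. The share of all genes called in those fits is not given, so the fall is not read as a result about the members.

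The neurons, compared with the mean of the other 3 cell types, were set apart by 1 member. Syt11, an atypical synaptotagmin found on many organelles of neurons and glia, had 2893 and 1516 in neurons, against 873 and 592 in epithelium, 470.3 and 367 in mesenchyme and 186 and 290.3 in endothelium. Both neuronal libraries lay above the other 6, with a log2 difference of 2.35 (SE 0.35, limma adjusted p = 0.048). This 1 call of 61 stands beside 3.36% of all genes, of which 2.3% were higher and 1.07% lower, and the median log2 difference of the members was 0.08, against -0.04 over all genes. That median was negative, between -0.021 and -0.081, in 5 of the 8 fits that left out 1 library (either epithelial, either endothelial or the cochlear neuronal one). The call for Syt11 was lost in a fit without the mean-variance trend (limma adjusted p = 0.053) and in 7 of the 8 fits that left out 1 library (highest limma adjusted p = 0.34). The call remained without vestibular endothelium, where Stx7 passed as well. Without either epithelial library Sv2c passed and Syt11 did not. The share of all genes called in these fits is not given, so their calls are not read as a result about the members.

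Several genes of presynaptic terminals had their highest value in cochlear neurons but not in vestibular neurons. Snap25, the SNAP-25 gene of synapses, had 259 and 58.0 in neurons, 94.9 and 120.0 in epithelium, 83.3 and 53.0 in mesenchyme and 20 and 46.8 in endothelium. Its cochlear value was the highest of all 8 libraries, but its vestibular value was below both epithelial ones (log2 difference 1.01, SE 0.69, limma adjusted p = 0.499). Cplx1, the complexin gene of fast synapses, was also highest in cochlear neurons, with 428 and 28.9 in neurons, 64.8 and 36.4 in epithelium, 152 and 21.9 in mesenchyme and 20 in both endothelial libraries. The cochlear value exceeded the vestibular one in 3 of 4 cell types for Cplx1. Rims3, a short RIM gene, had 400.4 and 40.4 in neurons, 113 and 50.9 in epithelium, 148 and 70.8 in mesenchyme and 35.9 and 23.9 in endothelium. Rims4 had 76.8 and 20 in neurons, 38.9 and 28.6 in epithelium, 59.3 and 20 in mesenchyme and 20 in both endothelial libraries, and Rab3c had 46.8 and 20 in neurons. In vestibular neurons these 5 genes lay between 20 and 58.0, and 6 of the 16 neuron markers were at the minimum there. That number was also 6 in cochlear epithelium, vestibular mesenchyme and vestibular endothelium. None of the 16 was at the minimum in cochlear neurons or in cochlear mesenchyme.

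The syntaxin, VAMP and vesicle genes of neurons were spread over several cell types. Stx1a, a syntaxin of the synaptic plasma membrane, had 238 and 81.3 in neurons, against 302 and 199 in epithelium, 448 and 893 in mesenchyme and 1277 and 401 in endothelium. Vamp2, synaptobrevin 2, had 2239.9 and 3149.8 in neurons, against 1982 and 2243 in epithelium, 1444 and 1905 in mesenchyme and 806 and 1528 in endothelium. Vamp1, synaptobrevin 1, had 110.1 and 82.9 in neurons, against 153 and 396 in epithelium, 101 and 183 in mesenchyme and 141 and 165 in endothelium. None of these 3 passed in any comparison.

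Of the vesicle proteins, Sv2c came nearest in neurons, with 117 and 91.8, against 20 and 60.9 in epithelium and 20 in all 4 other libraries (log2 difference 2.06, SE 0.41, limma adjusted p = 0.0798). Sv2b was shared by neurons and epithelium, with 320.1 and 270.4 in neurons, 637 and 181 in epithelium, 41.8 and 20 in mesenchyme and 20 and 53.3 in endothelium. Sv2a had 231 and 96.9 in neurons, 141 and 212 in epithelium, 221 and 196 in mesenchyme and 51.9 and 36.9 in endothelium. None of the 3 SV2 genes passed in any comparison. For Sv2a and Sv2b the values of different cell types overlapped, so no order of cell types is read from them. The endothelium had at most 53.3 for any of the 3 genes. Neither of the remaining synapsins passed in neurons. Syn3 had 86.5 and 231 in neurons, 132 and 104 in epithelium, 54.9 and 59.0 in mesenchyme and 50.9 and 117 in endothelium. Syn2 had 80.1 and 20 in neurons, 20 in both epithelial libraries, 88.8 and 20.9 in mesenchyme and 137 and 133 in endothelium. Both genes contain a Timp gene on the opposite strand, Timp3 in Syn3 and Timp4 in Syn2. Stx7, an endosomal syntaxin, was above the other 6 libraries in both neuronal ones (3033 and 3139, against 734 to 1702) without passing (limma adjusted p = 0.0942). With Syt11 and Sv2c it made 3 such members, beside 6.4% of all genes. Vamp8 was the 1 member below the other 6 in both neuronal libraries, beside 3.22% of all genes.

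In mesenchyme 4 members were lower than the mean of the other cell types and none was higher, beside 3.33% of all genes in either direction, 1.51% lower and 1.82% higher. These were Stxbp2 (log2 difference -2.87, SE 0.30, limma adjusted p = 0.0284), Rims2 (-2.47, SE 0.26, limma adjusted p = 0.0284), Syt5 and Rab3b. All 4 are members that were higher in epithelium, and Syt5 and Rab3b were as low in endothelium as in mesenchyme, at or just above the minimum. Rims2 and Stxbp2 were below the other 6 libraries in both mesenchymal ones, with 27.6 and 20 for Rims2 and 50 and 59.4 for Stxbp2. With Stx3 they made 3 such members, beside 4.02% of all genes. The count was 0 without either mesenchymal library, either neuronal library or vestibular epithelium, 2 without cochlear epithelium and 2 without vestibular endothelium. It was also 2 without the mean-variance trend, where Stxbp2 and Rims2 remained.

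A pair of synaptotagmin genes had their highest values in mesenchyme, although neither passed. Syt4, an atypical synaptotagmin gene induced by activity in neurons, had 885 and 389 in mesenchyme, against 45.3 and 115 in epithelium, 128 and 266 in neurons and 30.6 and 72.4 in endothelium. Both mesenchymal libraries lay above the other 6 (log2 difference 2.76, SE 0.61, limma adjusted p = 0.0889). Syt4 passed once genes whose values never reached 100 were removed, a setting in which Rab3b (limma adjusted p = 0.149) and Syt5 (0.09) lost their lower calls in mesenchyme. Syt1, given above, had 2989 and 1404 in mesenchyme, but 1940.4 in cochlear epithelium lay between these (log2 difference 3.07, limma adjusted p = 0.194). Its lowest value was 29.6 in cochlear endothelium, some way below the 216 of vestibular endothelium. Cplx2, the second complexin gene, had 1652 and 1451 in mesenchyme, against 1034 and 898 in epithelium, 1050.3 and 782 in neurons and 702 and 447 in endothelium (log2 difference 0.97, limma adjusted p = 0.0592). Syt4, Cplx2 and Stx18 were the 3 members for which both mesenchymal libraries lay above the other 6, beside 7.63% of all genes. The 16 markers of neurons summed to 5961 and 4759 in mesenchyme, against 8812 and 5651 in neurons, and their part in these values was not tested.

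The endothelium differed from the other 3 cell types in 10 members, beside 11.1% of all genes. Among these, 3 members were higher, Syt15 and Vamp5 with the largest differences, beside 5.96% of all genes, and 7 members were lower, beside 5.14%. The median log2 difference of the members was -0.56, against -0.03 over all genes, and shrank to -0.165 without cochlear endothelium. It was -1.10 over the 30 genes of regulated exocytosis and -0.03 over the 31 genes of general trafficking. The difference was positive for 21 of the 61 members, beside 46.9% of all genes.

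Syt15, an atypical synaptotagmin without calcium binding at chr14:34219595-34230420 on the plus strand, had 1053 and 1649 in endothelium, against 20 in both epithelial, both mesenchymal and the cochlear neuronal libraries and 135 in vestibular neurons. Its log2 difference of 5.52 (SE 0.62, limma adjusted p = 0.019) was the largest of any member in any comparison and is measured against the table minimum. The value of 135 in vestibular neurons stood beside a sum of 15309 over the 12 endothelial markers in that library, against 1735 in cochlear neurons, and its part was not tested. Vamp5, which encodes myobrevin, a VAMP first described in muscle, had 840.0 and 508 in endothelium, against 20 and 36.4 in epithelium, 87.5 and 43.0 in neurons and 25.6 and 29.8 in mesenchyme (log2 difference 4.15, SE 0.44, limma adjusted p = 0.0178). Syt15, Vamp5 and Syn2 were among the 4 members for which both endothelial libraries lay above the other 6, beside 10.2% of all genes.

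The 7 lower members were Syt13 (log2 difference -2.56, SE 0.33, limma adjusted p = 0.0225), Syt11 (-1.87), Stxbp2 (-1.64), Syt5 (-1.30), Rab3b (-1.15), Cplx2 (-0.98) and Syt17 (-0.72). Syt11 and Syt13 were below the other 6 libraries in both endothelial ones, and so was Cplx2 (702 and 447 in endothelium, against 782 to 1652). Syt5, Rab3b and Syt17 were at 20 in both endothelial libraries, and for Syt5 and Syt17 in both mesenchymal ones too, and the values above them in the other libraries were chiefly the epithelial ones. Snap25, Cplx1, Rab3a, Rims3 and Sv2a also had their 2 lowest values in endothelium without passing. They were among 9 members with both endothelial libraries below the other 6, beside 7.76% of all genes.

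The endothelial count also fell when any 1 library was left out. Without the share of all genes called in those fits, this fall cannot be compared with that in epithelium. The count was 0 without cochlear endothelium, 2 without vestibular endothelium, 0 without either mesenchymal library, 1 without cochlear and 4 without vestibular neurons, and 4 without cochlear and 3 without vestibular epithelium. No call was kept in all 8 of these fits, and under the other alternatives Syt15, Vamp5, Syt11 and Stxbp2 kept theirs while 5 members lost it in at least 1. For Syt15 the log2 difference stayed between 5.11 and 5.94 and for Vamp5 between 3.78 and 4.52 in the fits that left out 1 library, with highest limma adjusted p of 0.128 for Syt15 and 0.115 for Vamp5.

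**Figure D3:**
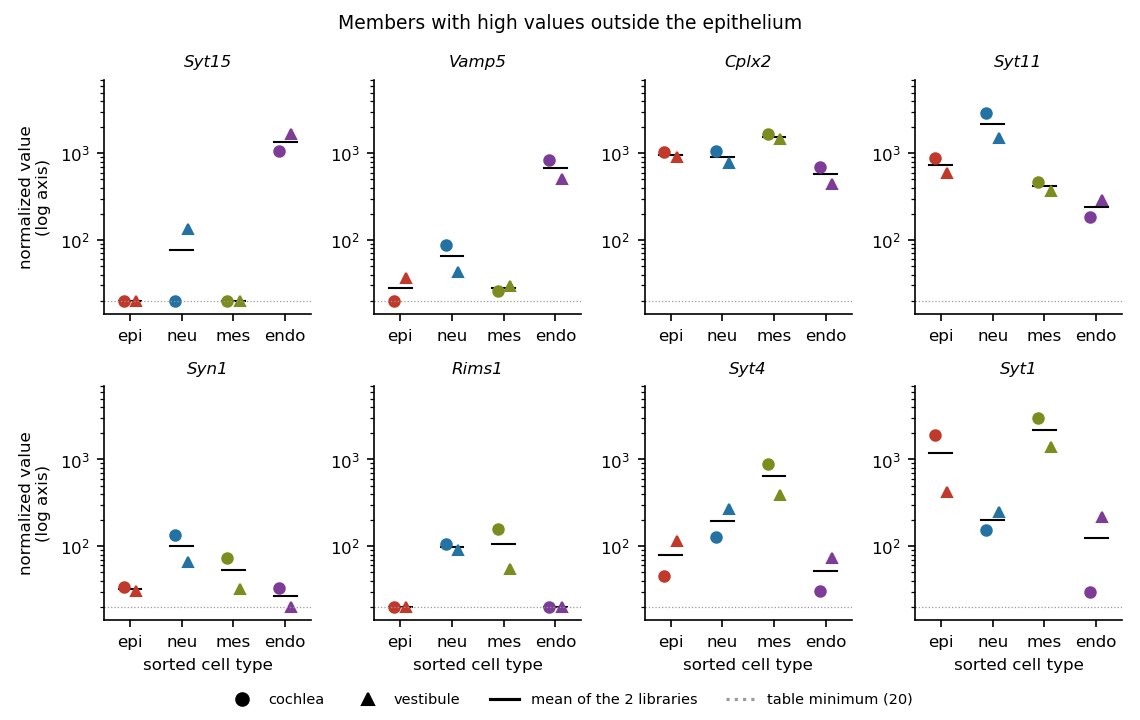
Normalized values (log axis) of 8 members with high values outside the epithelium, by sorted cell type (epi, epithelium; neu, neurons; mes, mesenchyme; endo, endothelium); circles are cochlear and triangles vestibular libraries, bars their mean, and the dotted line the table minimum of 20. Syt15 and Vamp5 are high in both endothelial libraries, Syt11 in both neuronal ones, and Syt1 shows wide gaps between cochlea and vestibule.

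**Figure D4:**
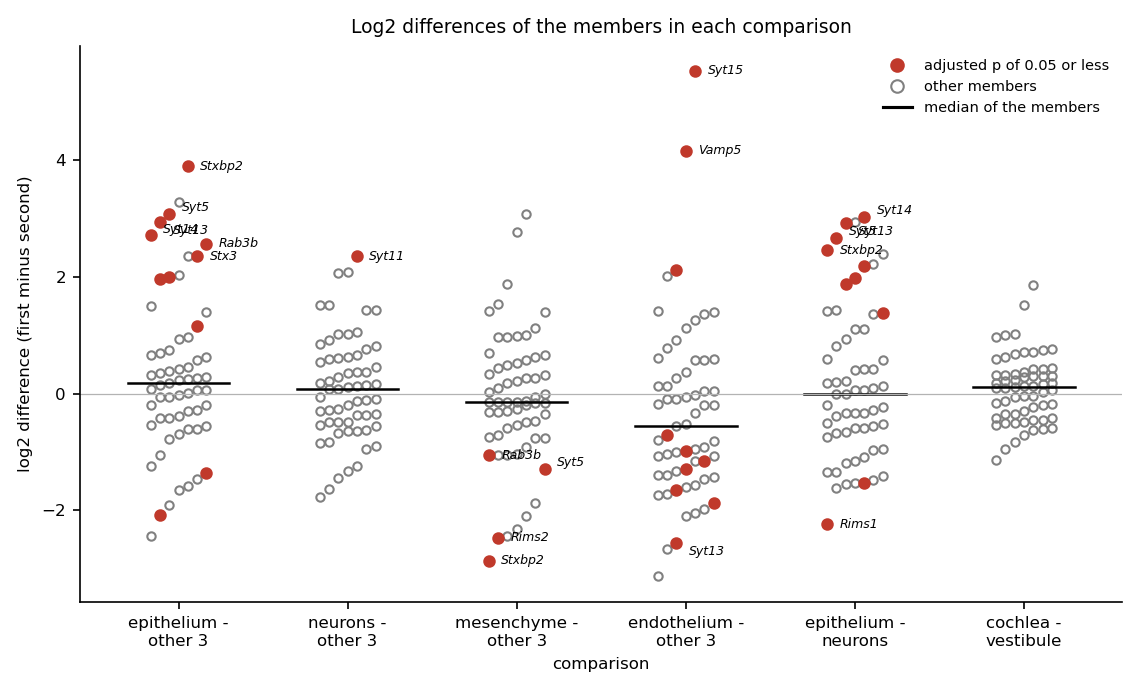
Log2 differences (vertical axis, first group minus second) of the 61 members in each of the 6 comparisons; filled points passed an adjusted p of 0.05 in limma, open points did not, and bars are the medians of the members. The medians lie between -0.56 in endothelium and 0.17 in epithelium, and no point is filled for cochlea minus vestibule.

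Vamp5 and Vamp8 are neighbours on chromosome 6. Vamp5 lies at chr6:72368794-72380468 and Vamp8 at chr6:72385223-72390703, both on the minus strand (GRCm38, GENCODE vM21), with 4754 bases between them. Yet Vamp5 was high in endothelium and Vamp8 in epithelium. The sequences before the annotated starts of these 2 genes, and of Stx3 and Syt14 as further epithelial members, are printed to show the region next to the start of members with opposite patterns. They are from RefSeq (GRCm38.p6), on the strand of the gene, and end at the base before the annotated start of the GENCODE gene, and capitals mark GGGCGG or its complement CCGCCC.
Vamp5, chr6:72380469-72380718, minus strand: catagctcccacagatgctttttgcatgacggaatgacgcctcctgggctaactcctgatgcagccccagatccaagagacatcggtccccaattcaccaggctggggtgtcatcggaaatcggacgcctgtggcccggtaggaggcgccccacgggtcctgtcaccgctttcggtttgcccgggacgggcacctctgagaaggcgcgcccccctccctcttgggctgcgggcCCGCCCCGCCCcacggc
Vamp8, chr6:72390704-72390917, minus strand: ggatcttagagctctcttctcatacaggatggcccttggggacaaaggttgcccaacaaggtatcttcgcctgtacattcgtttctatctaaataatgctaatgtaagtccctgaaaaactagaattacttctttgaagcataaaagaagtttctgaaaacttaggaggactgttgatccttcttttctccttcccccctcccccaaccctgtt
Stx3, chr19:11819404-11819653, minus strand: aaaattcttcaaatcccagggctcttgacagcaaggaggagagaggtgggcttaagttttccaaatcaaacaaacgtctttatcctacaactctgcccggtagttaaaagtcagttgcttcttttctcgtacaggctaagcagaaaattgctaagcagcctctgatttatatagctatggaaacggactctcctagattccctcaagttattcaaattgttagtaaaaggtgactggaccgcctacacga
Syt14, chr1:193035776-193036025, minus strand: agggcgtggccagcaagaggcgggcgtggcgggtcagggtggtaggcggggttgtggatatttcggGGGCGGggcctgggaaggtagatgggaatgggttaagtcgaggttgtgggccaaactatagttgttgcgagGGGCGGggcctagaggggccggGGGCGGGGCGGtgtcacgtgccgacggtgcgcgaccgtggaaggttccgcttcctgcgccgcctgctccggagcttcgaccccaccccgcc
The stretch before Vamp5 held 2 overlapping matches to GGGCGG and that before Syt14 held 4, whereas neither the one before Vamp8 nor the one before Stx3 held any. The G and C content followed the same split over the whole 250 bases before the RefSeq start, with 66.0% for Vamp5 and 69.2% for Syt14, against 43.6% for Vamp8 and 42.0% for Stx3. Of 32851 mouse promoters of the same length, 32.7% held GGGCGG on either strand. Searches for AACNNGTT (3.64% of all promoters), CAGCTG (13%) and CCGGAA (12%) on both strands found no match in these 4. A match describes letters and not a bound factor.

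Ratios between related members within a library remove any shift that moves both genes, and since a correction for gene length is not stated, only changes of a ratio between libraries are read. Among the VAMP genes, the log2 ratio of Vamp2 to Vamp3 was 1.04 and 1.15 in epithelium, 0.07 and -0.19 in neurons, -0.25 and -0.04 in mesenchyme and -1.42 and -1.67 in endothelium, so that epithelium and endothelium took the ends. Vamp2 over Vamp8 was 0.94 and 1.06 in epithelium, 2.49 and 2.93 in neurons, 1.64 and 1.85 in mesenchyme and 0.75 and 1.43 in endothelium, and was highest in the 2 neuronal libraries. Stx1a over Stx3 was -1.47 and -2.02 in epithelium, 1.10 and -1.45 in neurons, 2.33 and 3.58 in mesenchyme and 2.47 and -0.20 in endothelium. Snap25 over Snap23, the synaptic and the ubiquitous SNAP-25 genes, was -3.35 and -2.75 in epithelium, -1.63 and -5.42 in neurons, -3.44 and -4.05 in mesenchyme and -5.82 and -7.06 in endothelium. The ratio differed more between the 2 neuronal libraries than between epithelium and mesenchyme. Snap23 itself had 6370.3 in vestibular endothelium and 2519.5 in vestibular neurons, against 801 to 1183 in the other 6 libraries. These ratios are descriptions and were not tested.

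**Figure D5:**
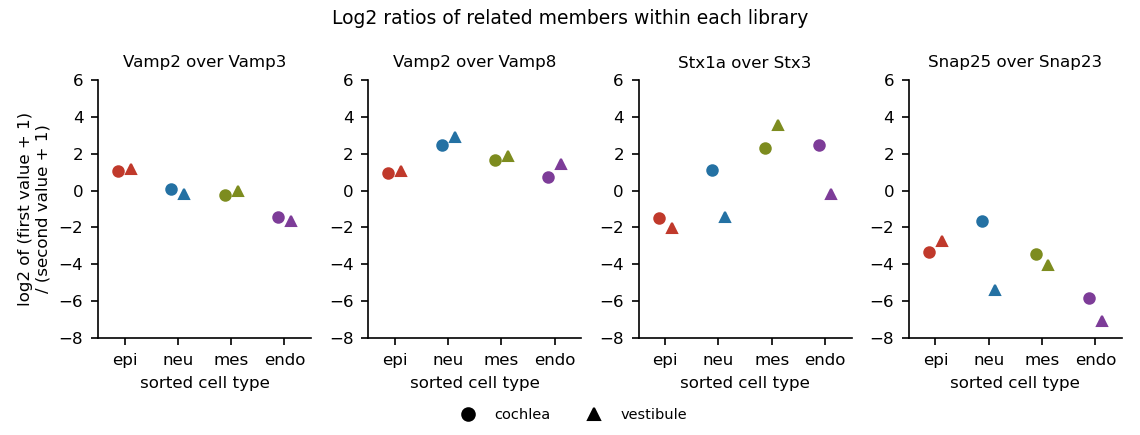
Log2 of (value + 1) of the first gene over that of the second (vertical axis) for 4 pairs of related members in each library, by sorted cell type (epi, epithelium; neu, neurons; mes, mesenchyme; endo, endothelium); circles are cochlear and triangles vestibular libraries. Vamp2 over Vamp3 is highest in the 2 epithelial and lowest in the 2 endothelial libraries, Vamp2 over Vamp8 is highest in the 2 neuronal ones, and Snap25 over Snap23 differs widely between cochlear and vestibular neurons.

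Between the cochlea and the vestibule no member passed, and neither did any of the 15275 genes (0.0%). The log2 differences of the members ran from -1.14 for Syt13 to 1.85 for Cplx1, with 1.51 for Rims3 (limma adjusted p = 0.627 for each). The cochlear library was higher than the vestibular one in all 4 cell types for 6 members (Cplx2, Rab3d, Rims3, Stx6 and Syn1 among them), beside 9.43% of all genes. It was lower in all 4 for 5 members (Stx17, Syt13, Vamp2, Vamp3 and Vamp8), beside 5.53%. The median log2 difference was 0.10, against 0.02 over all genes. With 4 pairs and 3 residual degrees of freedom, even log2 differences of 1.51 and 1.85 did not pass. The absence of calls therefore does not show that members were alike in the organs.

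Of the other members, Snap29, a SNARE of many membranes, had 439 to 1278 over the 8 libraries, and Snap47 had 445 to 1186, with 1159 and 1165 in epithelium and 653 and 445 in endothelium. Stx11, a syntaxin of blood cells, had 126 and 37.0 in endothelium and 85.5 and 35.4 in neurons but was at 20 in epithelium and mesenchyme. The plasma membrane syntaxins Stx2 and Stx4a had 336 to 881 and 789.6 to 1264, and the endosomal Vamp4 had 412 to 1140.5. Stxbp5, which encodes tomosyn, an inhibitor of SNARE assembly, had 626 and 818 in epithelium, 814 and 1302 in neurons, 725 and 657 in mesenchyme and 945 and 1576 in endothelium. Its relatives by name, Stxbp4 and Stxbp6, ranged from 345 to 1302 and from 98.4 to 862. The syntaxins of internal membranes ranged from 208 to 520.5 for Stx18, from 305 to 543 for Stx8 and from 999.8 to 1869 for Stx16. Syt12 had 79.0 and 214 in mesenchyme and 131 and 79.1 in endothelium, against values between 20 and 20.3 in epithelium and neurons. Syt6 and Syt16 ranged from 99.8 to 232 and from 20 to 86.3. None of these members passed in any comparison.

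Other genes of vesicle release were taken from lists that hold no member. Of 90 measured genes of the active zone, vesicle proteins, SNARE recycling, endocytosis and transmitter transport, 7 were higher (7.78%, beside 7.27% of all genes) and 3 lower (3.33%, beside 6.68%) in epithelium. Otof, the gene of otoferlin, had 2774.4 and 8028 in epithelium and at most 288 elsewhere (log2 difference 5.98, limma adjusted p = 0.0077), and the vesicle priming gene Cadps2 had 2813 and 2210.3 in epithelium and at most 317 elsewhere (4.43). The active zone gene Rimbp2, whose product binds RIM proteins, had 113.8 and 112.6 in epithelium and at most 77.4 elsewhere, and the priming gene Unc13b had 4014 and 3189.9 against at most 1755. Its relative Unc13c was lower, with 24.6 and 20 in epithelium against 22.8 to 207 elsewhere (log2 difference -2.22, limma adjusted p = 0.0469), as were the dynamin gene Dnm3 (-2.43) and Sh3gl3 of the endophilin family (-2.65). In neurons 3 were higher (3.33%, beside 2.3% of all genes) and 0 lower (beside 1.07%). The higher ones were Sh3gl3 (999 and 897 in neurons, against at most 165 elsewhere), Scamp5 and Sytl3. In mesenchyme 0 were higher (beside 1.82% of all genes) and 1 was lower (1.11%, beside 1.51%). In endothelium 3 were higher (3.33%, beside 5.96%) and 8 lower (8.89%, beside 5.14%). The largest differences there were those of Amph (log2 difference -3.45) and Dnm1 (-2.71), both lower. Between epithelium and neurons 3 were higher (3.33%, beside 5.23%) and 3 lower (3.33%, beside 5.0%). No gene of these lists passed between the cochlea and the vestibule.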

How the data were processed

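mRNA-seq libraries of 4 sorted cell types from 2 organs were analysed, 8 in all, 1 for each cell type and organ. The signal values are as deposited by the authors, who mapped the reads (the submitters' processing notes name GRCm38 and TopHat 1.0.0) and scaled all libraries to identical sorted values with a minimum of 20; each library sums to 15931149.6 with 2058 genes at the minimum. The sources used here do not state how genes were counted, or whether by length or strand. The deposited pooled mean and the authors' cluster numbers were not used. Members were matched to GENCODE vM21 by identifier, 61 of 61, and 47 had an entry in the RefSeq promoter table.

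Cell type and organ were fitted as additive terms to log2(value + 1) of all 15275 genes with limma 3.58.1 in R 4.3.3 (mean-variance trend, 3 residual degrees of freedom, Benjamini-Hochberg adjustment over all genes at 0.05). The spread was pooled over the 4 cell types, so a lone library left after an omission was assumed to vary like the others. The design foresaw both counts and normalized values, and the test for the second was used. A log2 difference understates the change of genes near the minimum. The script was tested on simulated data for epithelium minus the other 3 cell types. At log2 changes of 1, 2, 3 and 4 it called 0, 13, 25 and 34 of 50 changed genes, with 5 false calls. The simulation changed a smaller share of genes than the 13.9% called in this comparison. The changed genes had mean levels above 100, and no minimum of 20 was imposed. Its rates therefore need not hold for these data. A member that did not pass is thus not shown to be unchanged. Some members are counted but not reported by name here. Members, roles and lists were chosen with earlier results of these data known. Values per library are given for members called in any comparison, for genes of regulated exocytosis and for the largest difference of each family. Some of the called genes were named from other lists, not in every case those of largest difference. The alternatives were pseudocounts of 0.1 and 20, removal of genes below 100 in every library, median-of-ratios scaling, no trend, no organ term and leaving out each library. Tables and figures were made in Python 3.11.15 with numpy 2.4.6, pandas 2.3.3 and matplotlib 3.10.9.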

Additional observations from a re-analysis of the deposited data

Results flagged for a closer look

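Snap25, the SNAP-25 gene of synaptic terminals, differed in direction between the organs. It had 94.9 in cochlear epithelium against 259 in cochlear neurons, a log2 difference of -1.44, and 120.0 in vestibular epithelium against 58.0 in vestibular neurons, a log2 difference of 1.04. With 1 library for each cell type and organ this difference between the organs was not tested. Vestibular neurons also had 6 of 16 neuron markers at the table minimum, against 0 of 16 in cochlear neurons. The number was also 6 in cochlear epithelium, vestibular mesenchyme and vestibular endothelium, and 0 in cochlear mesenchyme. The part of this in the result was not tested.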

How the results depend on the processing

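No call of a member turned direction under any alternative. Omissions of a library aside, 24 of the 36 calls, over 17 members, kept their side of the threshold in every alternative that held the gene. Syt17 never reached 100, so it was not fitted after removal of genes below that value. With a library left out, counts of called members ranged from 3 to 12 for epithelium (11 with all libraries), 0 to 2 for neurons (1), 0 to 3 for mesenchyme (4), 0 to 4 for endothelium (10), 0 to 8 for epithelium minus neurons (10) and 0 to 0 for cochlea minus vestibule (0), and 3 of the 36 calls were kept in all 8 fits. These fits have fewer libraries to set the spread of every gene. The share of all genes called in them is not given, so the lower counts are not read as a result about the members. The calls kept were those of Syt5, Rab3b and Syt17 in epithelium, which had values at the minimum. Such tied values hide spread between libraries, so these calls are not read as more stable than the others. Medians of the members in these fits ranged from 0.097 to 0.356 for epithelium, -0.081 to 0.075 for neurons, -0.232 to -0.03 for mesenchyme, -0.762 to -0.165 for endothelium, -0.131 to 0.097 for epithelium minus neurons and -0.016 to 0.14 for cochlea minus vestibule. The neuronal count was 2 after removal of genes below 100 in every library and 0 without the trend, and the mesenchymal count was 2 without the trend. The median in epithelium was 0.227 with median-of-ratios scaling and 0.11 with a pseudocount of 20, and that of epithelium minus neurons was 0.048 with median-of-ratios scaling, and the cause was not tested. No value for cochlea minus vestibule exists without the organ term. The labels carry no replicate numbers, and the organ term pairs the libraries; the fit without it is the unpaired one. Depth is unknown, and values at the minimum of 20 hide differences below it.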
